A study of Mus musculus with 12 samples.

Results

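The genes described here were 8 genes of cholesterol synthesis and its control: Hmgcs1, Idi1, Fdft1, Sqle, Lss and Dhcr7, which encode enzymes of the pathway, and Srebf2 and Insig1, which encode regulators. They were taken by name, with repeated rows of a name summed, and all 8 were among the 23301 gene names shared by the 12 expression tables. Expression was measured by poly(A) RNA-seq in mouse mammary tissue, in 4 groups of 3 samples. The Normal group was mammary gland of untreated wild-type female FVB mice. The Tumor group was mammary tumor of untreated female MMTV-PyVT mice, which carry the polyomavirus middle T antigen under the mouse mammary tumor virus promoter. The DMSO and C646 groups were tumors of MMTV-PyVT mice that received injections of the solvent DMSO or of C646, an inhibitor of the acetyltransferase p300, and both labels carry 1 mg/kg. All mice were 12 weeks old. The transgene was heterozygous, and the Normal samples were abdominal and inguinal glands pooled from 3 mice each, whereas each Tumor sample was a thoracic gland tumor of 1 mouse, so that gland position and pooling cannot be told apart from the tumor itself. Each injected sample was the largest tumor of its mouse.

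Cholesterol is built from acetyl-CoA, first through mevalonate to isoprenoid units, then by joining these into squalene, closing squalene into lanosterol and trimming lanosterol to cholesterol. The transcription factor SREBP-2, the product of Srebf2, switches on the genes of nearly all these steps when sterols in the endoplasmic reticulum are low. It leaves that membrane with its escort SCAP, and INSIG proteins hold the SCAP-SREBP complex back when sterols are plentiful. Growing cells use the pathway to make membranes, and the mammary epithelium also draws on it for milk fat.

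SREBP proteins bind the sterol regulatory element (SRE) in the promoters of their targets, often beside sites for the factors NF-Y and Sp1, and Srebf2 is itself such a target. RefSeq promoter sequence (GRCm38.p6, the mm10 assembly) matched 6 of the 8 genes, and 3 stretches of 150 bases are shown, because Hmgcs1 and Srebf2 held a match to the SRE and Insig1 fell most in tumors. Each runs from base -240 to base -91 relative to the RefSeq start, on the + strand, and capitals mark matches on either strand to the SRE consensus TCACNCCAC, its core TCACCCCA, the CCAAT box bound by NF-Y (ATTGG on the opposite strand), the GC box GGGCGG bound by Sp1 and the E-box CACGTG.
Hmgcs1, chr13:119690111-119690260: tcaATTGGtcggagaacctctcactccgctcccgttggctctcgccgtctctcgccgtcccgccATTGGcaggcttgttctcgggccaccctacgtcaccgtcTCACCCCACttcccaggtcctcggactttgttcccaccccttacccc
Srebf2, chr15:82147029-82147178: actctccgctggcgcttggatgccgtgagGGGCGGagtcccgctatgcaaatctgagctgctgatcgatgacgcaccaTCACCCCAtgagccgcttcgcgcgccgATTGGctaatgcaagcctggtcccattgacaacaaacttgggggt
Insig1, chr5:28071172-28071321: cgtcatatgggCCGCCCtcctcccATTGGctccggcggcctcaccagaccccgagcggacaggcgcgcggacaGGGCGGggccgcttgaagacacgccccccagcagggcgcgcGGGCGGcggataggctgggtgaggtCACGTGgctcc
The Hmgcs1 stretch held the SRE consensus at bases -137 to -129, which overlaps the core, and the Srebf2 stretch held the core alone at bases -162 to -155. The 6 genes have 8 promoters in the RefSeq set. Over the whole windows of 250 bases before and 50 after the start, the consensus was found in 1 of the 8 and in 1.24% of all 32851 promoters, and the core, a motif added after these sequences had been read, in 2 of the 8 and in 1.56% of all. The CCAAT box was found in 6 of the 8 against 37.4% of all promoters, and the GC box in 7 of the 8 against 35.7%. The E-box was found in 2 of the 8, for Dhcr7 and Insig1, against 7.15% of all promoters. These are matches of letters, and no binding was measured here.

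Expression values were FPKM, fragments counted relative to transcript length and to the mapped reads of the library, which the authors computed with Cufflinks. The tables of the Normal and Tumor samples and those of the DMSO and C646 samples had been made separately, so tests were run within each pair of groups, and levels set side by side across the pairs are descriptions. The number of reads behind each value is not known from FPKM, and the summed FPKM of a sample lay between 525515 and 753124. Differences were tested with limma on log2(FPKM + 0.03125), with p-values adjusted by the Benjamini-Hochberg method over all genes that reached 1 FPKM in at least 3 of the 6 samples. All 8 genes passed this filter in both comparisons. Nothing states that samples came from independent litters, and the p-values set each difference against the spread between these samples. In Normal this is the spread between pools of 3 mice, and in Tumor between single mice.

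Markers of cell types were checked first, since the groups were whole tissue. Epithelial markers summed to 455–955 FPKM in Normal and 2426–3412 FPKM in Tumor samples, and 5 of 7 were higher in tumors. Normal glands were rich in fat: all 8 white adipocyte markers were lower in tumors, with sums of 26049–32748 FPKM in Normal, 2480 FPKM in Tumor 1, 102 FPKM in Tumor 2 and 136 FPKM in Tumor 3. All 4 brown adipocyte, 6 leukocyte and 4 endothelial markers and 2 of 3 fibroblast markers measured were lower too, whereas all 4 skeletal muscle markers were higher, with sums of 5.28–63.2 FPKM in Normal and 1364–3857 FPKM in Tumor samples. Of all genes tested, 28.8% were higher and 31.7% lower in tumors. No marker of these lists was at 0 in all 3 samples of either group. The part of these shifts in the results below was not tested. In whole tissue, fewer cells of a type and less RNA per cell cannot be told apart.

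The comparison of Tumor with Normal asks which transcripts differ between tumor and normal gland. The cholesterol genes did not move as a block: 3 rose (Sqle, Dhcr7 and Srebf2), 3 fell (Hmgcs1, Fdft1 and Insig1) and 2 did not pass the test (Idi1 and Lss). The median log2 fold change of the 8 genes was -0.21, beside -0.02 over all genes tested. Of all 13031 genes tested, 60.5% passed the same threshold, 28.8% higher and 31.7% lower, so a count of 6 of 8 was near the background. The groups did not overlap for 5 of the 8 genes, against 68.9% of all genes. When each sample was scaled to the same sum of FPKM, which shifted the median of all genes by -0.27, 1 member was higher and 3 were lower, and the split of all genes moved from 3758 higher and 4128 lower to 2804 and 5149.

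**Figure D1:**
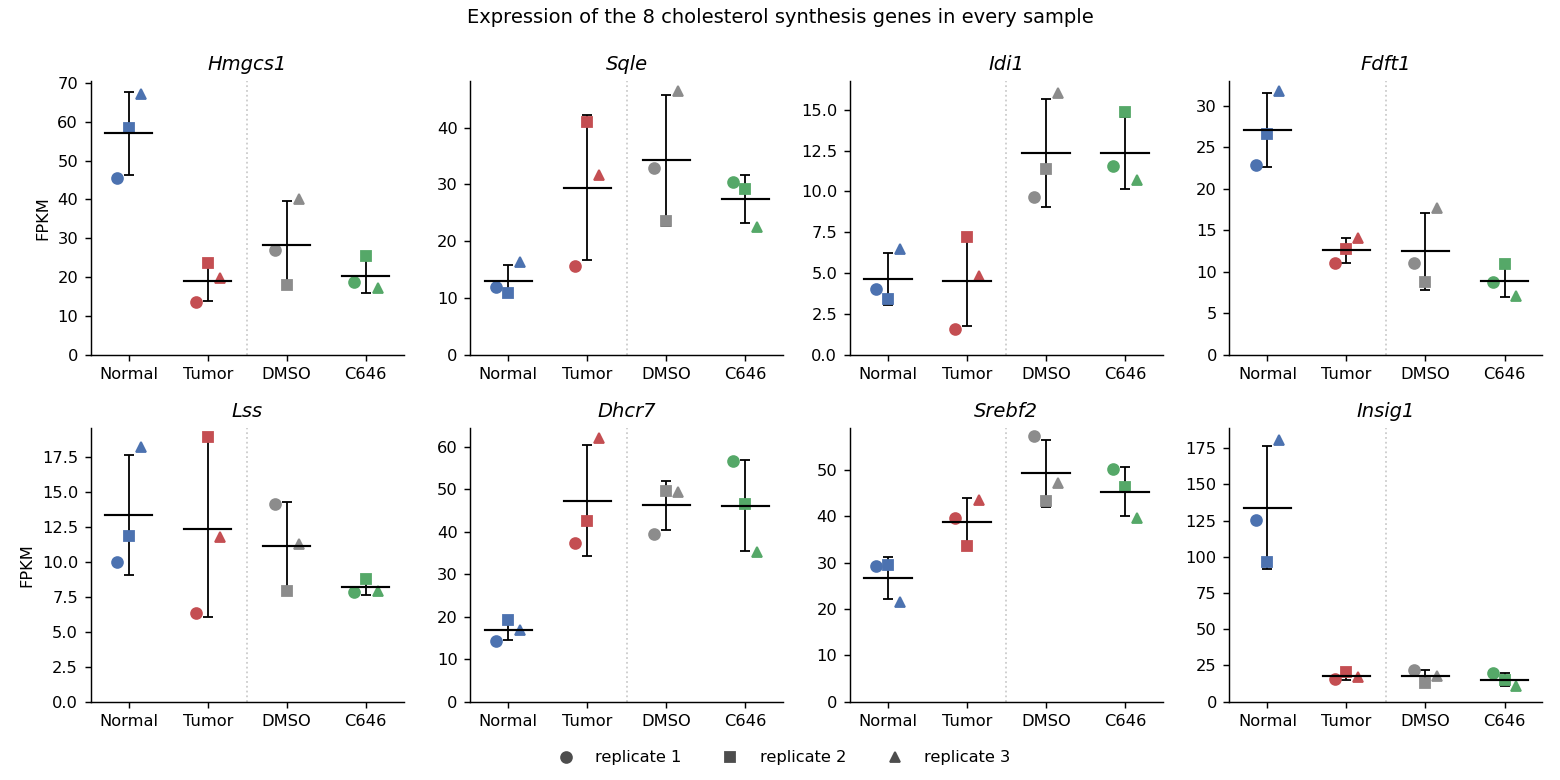
FPKM (vertical axis, from 0) of each gene in the 12 samples, by group; symbols are replicates, horizontal lines group means and error bars SD (n = 3). The dotted line separates the tables that had been made separately. Insig1 stood at 96.4–180 FPKM in Normal and at or below 21.7 FPKM in every tumor, while Dhcr7 lay at or above 35.3 FPKM in every tumor and at or below 19.1 FPKM in Normal.

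Of the enzymes that act before squalene, Hmgcs1 encodes the synthase that makes HMG-CoA, an early intermediate on the way to mevalonate. Its FPKM was 45.7, 58.3 and 67.1 in the Normal and 13.6, 23.7 and 19.7 in the Tumor samples. The highest tumor thus lay below the lowest normal gland, and Hmgcs1 fell by 1.60 on the log2 scale (SE 0.239, adjusted p = 0.00103), a 3.04-fold decrease. Idi1, the isomerase that interconverts the isoprenoid units, was the lowest of the genes, at 4.03, 3.42 and 6.47 FPKM in Normal and 1.59, 7.21 and 4.83 FPKM in Tumor. The tumors held both the lowest and the highest value, and the log2 difference was -0.22 (95% interval -1.50 to 1.05, adjusted p = 0.739). Leaving out Tumor 1 turned it to 0.40, and leaving out Normal 3 to 0.04, still short of the threshold. Hmgcs1 lies at chr13:119690379-119708260 and Idi1 at chr13:8885501-8892451, both on the + strand (GENCODE vM21 on GRCm38).

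The squalene steps went opposite ways. Fdft1, squalene synthase, commits isoprenoids to sterols, and its FPKM was 22.9, 26.6 and 31.8 in Normal and 11.0, 12.7 and 14.0 in Tumor. The groups were well apart and the tumors close to each other, and Fdft1 fell by 1.10 on the log2 scale (SE 0.170, adjusted p = 0.00122), a 2.14-fold decrease. Sqle encodes squalene epoxidase, the next enzyme, which uses oxygen and can limit the flow through the pathway. Its FPKM was 11.9, 10.8 and 16.3 in Normal and 15.6, 41.0 and 31.7 in Tumor. Tumor 2 and Tumor 3 were above every normal gland, but Tumor 1 lay below Normal 3, so the groups overlapped. Sqle rose by 1.09 on the log2 scale (SE 0.354, adjusted p = 0.0305). This call rested on single libraries: the log2 difference was 1.04, 0.97, 0.80 and 0.98 without Normal 1, Normal 2, Tumor 2 and Tumor 3, none of which passed, and 1.49 without Tumor 1, which passed. Scaling to the same sum of FPKM gave 0.84, which did not pass.

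Fdft1 (chr14:63145150-63179578, - strand) shares 774 exon bases with Ctsb, the cathepsin B gene, on the opposite strand, and the libraries did not keep the strand, so reads from the shared bases cannot be told apart. Ctsb stood at 370, 455 and 435 FPKM in Normal and 220, 210 and 180 FPKM in Tumor, and fell by 1.04 on the log2 scale (adjusted p = 0.00115), a fall close in size to that of Fdft1. How much of the Fdft1 value came from Ctsb was not tested. Antisense exons overlapped Hmgcs1 by 557 bases (Gm48342), Lss by 381 bases (4930483K19Rik) and Idi1 by 323 bases (Gm48574). Among these, 4930483K19Rik had a row of its own, at 0–0.333 FPKM over the 12 samples. Sqle is at chr15:59315077-59331192 on the + strand, with no exon shared with another gene.

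After squalene, Lss closes the sterol ring to give lanosterol, and Dhcr7 carries out one of the last reductions, after which the product is cholesterol or its direct precursor. Lss was 9.96, 11.8 and 18.1 FPKM in Normal and 6.32, 18.9 and 11.7 FPKM in Tumor. The ranges lay on top of each other, and the log2 difference was -0.20 (95% interval -1.16 to 0.76, adjusted p = 0.688), with 0.21 when Tumor 1 was left out and 0.05 when Normal 3 was. Dhcr7 was 14.4, 19.1 and 16.9 FPKM in Normal and 37.3, 42.6 and 62.0 FPKM in Tumor. The lowest tumor was well above the highest normal gland, and Dhcr7 rose by 1.47 on the log2 scale (SE 0.216, adjusted p = 0.000977), a 2.76-fold increase. Both genes are on the + strand, Lss at chr10:76531588-76557138 and Dhcr7 at chr7:143823145-143848410.

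The regulators moved in opposite directions. Srebf2 (chr15:82147181-82205379, + strand), which also hosts the microRNA gene Mir33 in an intron, was 29.2, 29.5 and 21.5 FPKM in Normal and 39.6, 33.5 and 43.5 FPKM in Tumor. The groups did not overlap, though the step between them was small, and Srebf2 rose by 0.54 on the log2 scale (SE 0.176, adjusted p = 0.0301), a 1.46-fold increase. The call was lost when Normal 3, Tumor 1 or Tumor 3 was left out (log2 differences of 0.39, 0.53 and 0.46), with quantile normalization (0.43) and with scaling to the same sum of FPKM (0.29). Insig1 (chr5:28071363-28078662, + strand), which encodes a retention protein of the SREBP complex and is also a target of SREBPs, was 125, 96.4 and 180 FPKM in Normal and 15.4, 20.7 and 16.9 FPKM in Tumor. It went from the highest of the 8 genes to the middle of them and fell by 2.88 on the log2 scale (SE 0.242, adjusted p = 8.80e-05), a 7.37-fold decrease. Insig1 was lowest in Tumor 1, which was the lowest of its group for 7 of the 8 genes. Tumor 1 also had the highest sum of its group for every marker list, epithelial and white adipocyte included. A link between these sums and its low values was not tested. Without Tumor 1 the log2 difference was -2.79.

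**Figure D2:**
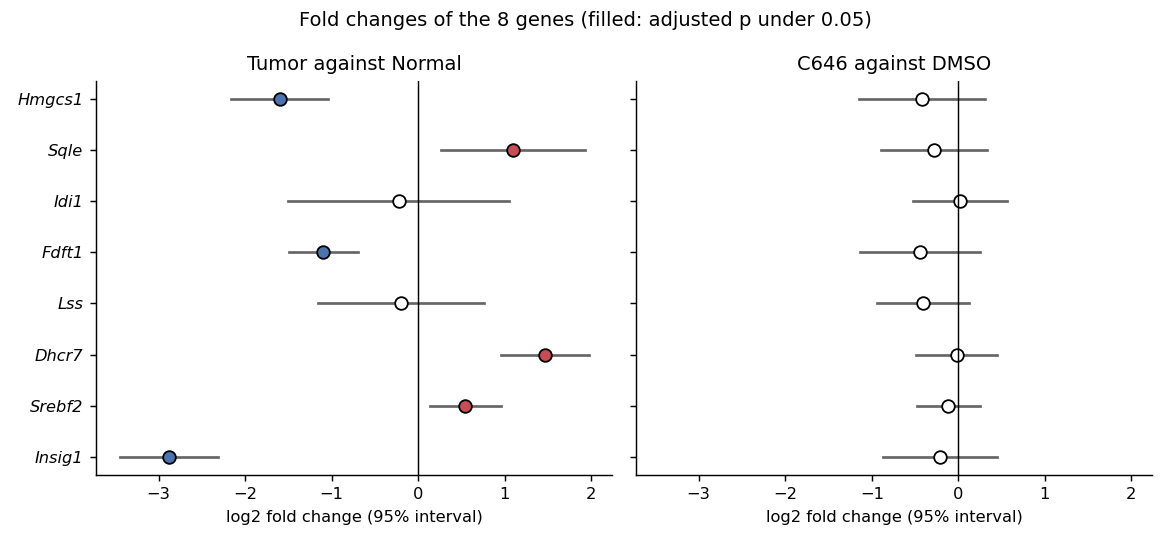
Log2 fold change (points) and 95% interval (lines) of the 8 genes in Tumor against Normal and in C646 against DMSO, from limma; filled points passed an adjusted p of 0.05. On the left 3 filled points are above and 3 below 0, with Insig1 at -2.88, and the open points of Idi1 and Lss are at -0.22 and -0.20, and on the right every interval includes 0.

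FPKM is divided by transcript length, so levels can be ranked between genes within a sample. In Normal glands Insig1 (134 ± 42.6 FPKM, SD, n = 3) stood first and Hmgcs1 (57.0 ± 10.8) second, both apart from their neighbours. Fdft1 (27.1 ± 4.45) and Srebf2 (26.8 ± 4.53) overlapped, as did Dhcr7, Lss and Sqle (13.0–16.8 on average), and Idi1 (4.64 ± 1.62) came last. In Tumor samples Dhcr7 (47.3 ± 13.0) and Srebf2 (38.8 ± 5.02) led, and neighbours in the order overlapped except Insig1 (17.7 ± 2.75) and Fdft1 (12.6 ± 1.52). The DMSO and C646 tumors had the same 5 genes on top, with Srebf2 at 49.3 ± 7.16 and 45.4 ± 5.35 FPKM and Dhcr7 at 46.2 ± 5.75 and 46.1 ± 10.7 FPKM. Idi1 differed most between the untreated and injected tumors, at 1.59–7.21 FPKM in Tumor and 9.66–16.0 FPKM in the DMSO and C646 tumors, a description across tables that had been made separately.

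Ratios of genes within a sample do not depend on its scaling, and 3 were formed after the values had been seen, so they are given without a test. Each sets a gene that rose against a gene that fell, so a gap between Normal and Tumor follows from the choice. Sqle stood to Hmgcs1 as 0.186–0.260 in Normal glands and as 1.15–1.73 in the 9 tumors. Insig1 over Srebf2 was 3.27–8.37 in Normal and 0.272–0.619 in the tumors. Dhcr7 over Fdft1 was 0.532–0.720 in Normal and 2.79–6.44 in the tumors, with the limit given above for bases that Fdft1 shares with Ctsb. In each ratio the untreated, DMSO and C646 tumors fell in 1 range, well clear of the normal glands.

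**Figure D3:**
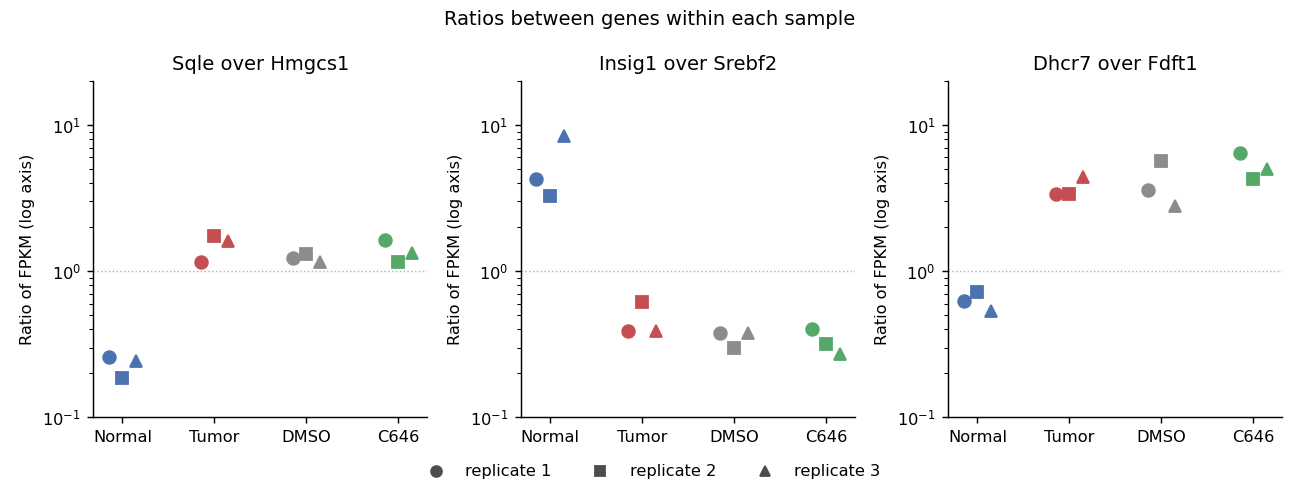
Ratio of FPKM of 2 genes within each sample (log axis) by group; symbols are replicates and the dotted line marks equal levels. All 9 tumors lie between 1.15 and 1.73 for Sqle over Hmgcs1, between 0.272 and 0.619 for Insig1 over Srebf2 and between 2.79 and 6.44 for Dhcr7 over Fdft1, each on the other side of the dotted line from the 3 normal glands.

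The other enzymes of the pathway were examined for the same split. Of 13 counted here, 12 had a row of their own and were tested, of which 2 were higher, 4 lower and 6 not called, with a median log2 fold change of -0.04. The enzyme without a row of its own was Tm7sf2, a sterol reductase, whose row joined with Vps51 stood at 24.1 ± 2.25 FPKM in Normal and 35.9 ± 2.197 FPKM in Tumor (log2 0.58, adjusted p = 0.00671). Fdps, which makes farnesyl diphosphate, rose from 57.1 ± 6.44 to 142 ± 24.2 FPKM (log2 1.31, adjusted p = 0.000545), and Ebp, a sterol isomerase, rose from 28.6 ± 2.05 to 58.4 ± 11.0 FPKM (log2 1.02, adjusted p = 0.00148). The isomerase and the farnesyl step thus sat beside Sqle and Dhcr7 among the higher genes. Sc5d, the sterol desaturase just before Dhcr7, fell by 1.27 (30.0 ± 7.58 to 12.4 ± 3.03 FPKM, adjusted p = 0.00336), and Nsdhl, which helps remove the methyl groups of lanosterol, fell by 1.09 (35.4 ± 9.46 to 16.7 ± 4.70 FPKM, adjusted p = 0.00941), both on the log2 scale. Over the 18 enzymes with a row of their own, the 6 among the 8 genes included, 4 were higher, 6 lower and 8 not called, so that 10 of 18 passed, near the 60.5% of all genes.

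**Figure D4:**
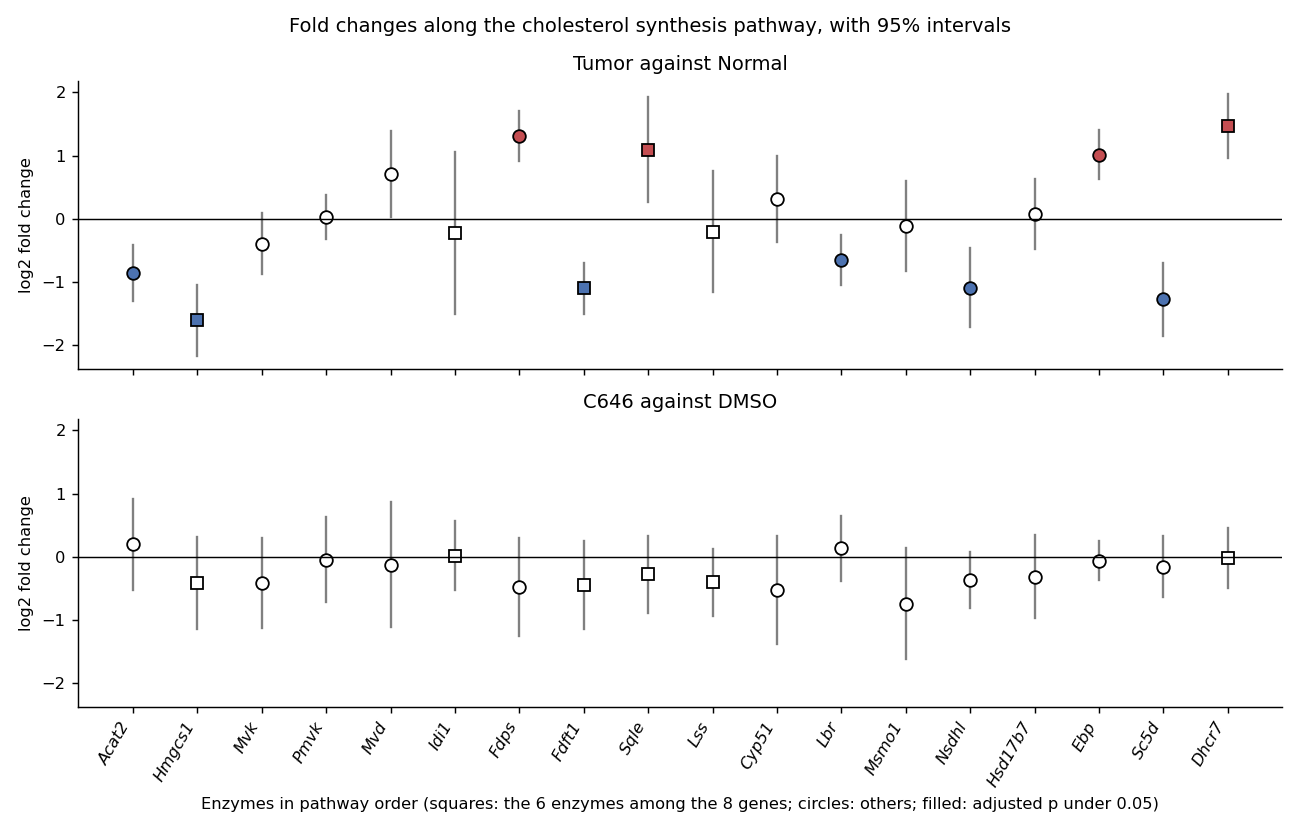
Log2 fold change (points) and 95% interval (lines) of 18 cholesterol synthesis enzymes in the order of their steps, above for Tumor against Normal and below for C646 against DMSO; squares are the 6 enzymes of the 8 genes, circles the others, and filled points passed an adjusted p of 0.05. Above, 4 red and 6 blue points lie between -1.60 and 1.47; below, no point is filled and 15 of 18 lie under 0.

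Among 5 regulators tested beside Srebf2 and Insig1, 1 rose, 1 fell and 3 were not called, whereas 60.5% of all genes were called. Scap, the escort of SREBPs, rose from 24.2 ± 3.92 to 74.5 ± 30.7 FPKM (log2 1.56, adjusted p = 0.00234). Nr1h3, the sterol receptor LXR-alpha, which drives cholesterol export and Srebf1, fell from 45.8 ± 5.36 to 5.35 ± 3.24 FPKM (log2 -3.24, adjusted p = 0.000308). In the DMSO and C646 tumors, across tables made separately, Scap averaged 33.8 and 34.0 FPKM and Nr1h3 4.01 and 4.69 FPKM. Scap there was thus nearer to Normal than to the untreated tumors, and Nr1h3 was low in all tumor groups. Insig2, the other INSIG gene, was 18.8 ± 1.09 FPKM in Normal and 15.8 ± 0.451 FPKM in Tumor (log2 -0.25, adjusted p = 0.112). Insig1 was thus several times more abundant than Insig2 in normal glands, while the means were 17.7 and 15.8 FPKM in tumors. Srebf1, the gene of SREBP-1, was given in the Normal and Tumor tables only on 1 row joined with Mir6922, which stood at 109, 117 and 120 FPKM in Normal and 476, 202 and 271 FPKM in Tumor (log2 1.37, adjusted p = 0.00568).

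Genes of cholesterol uptake and trafficking went both ways, with 1 higher, 3 lower and 2 not called of 6 tested. The share called was near the 60.5% of all genes, of which 28.8% were higher and 31.7% lower. Lipa, the lysosomal acid lipase that frees cholesterol from its esters, rose from 31.1 ± 5.03 to 73.1 ± 22.5 FPKM (log2 1.19, adjusted p = 0.00539). Npc2 and Npc1, which pass cholesterol out of the lysosome, fell by 1.03 and 0.92 on the log2 scale (adjusted p = 0.00167 and 0.0205); the Npc1 call was lost without Normal 1 (-0.92), without Normal 3 (-0.86) and with quantile normalization (-0.63). For storage and efflux 4 of 5 genes were lower, against 31.7% of all genes, and none was higher. The largest falls were those of the transporters Abca1 (12.0 ± 2.32 to 2.35 ± 0.192 FPKM, log2 -2.32, adjusted p = 9.01e-05) and Abcg1 (10.4 ± 0.838 to 3.07 ± 1.18 FPKM, log2 -1.83, adjusted p = 0.00134). Levels in the injected tumors are a description across tables that had been made separately. Abca1 averaged 11.8 FPKM in DMSO and 14.2 FPKM in C646 tumors, and Npc1 10.9 and 9.45 FPKM, beside 8.52 FPKM in Normal. On average, low Abca1 and Npc1 were thus seen in the untreated tumors only. Npc2 (70.1 and 55.9 FPKM) and Abcg1 (4.53 and 4.35 FPKM) stayed below every normal gland. Lipa, at 56.4 and 96.3 FPKM, stayed above its Normal mean. The reason was not tested.

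Of 9 listed genes of fatty acid synthesis, which is driven mainly by SREBP-1, 8 had a row of their own. These 8 were lower in tumors, against 31.7% of all genes, with a median log2 fold change of -3.61. The remaining gene, Scd2, stood only on a row joined with Mir5114 and Scd3, at 137 ± 18.5 FPKM in Normal and 153 ± 10.1 FPKM in Tumor (log2 0.17, adjusted p = 0.357). Scd1, the stearoyl-CoA desaturase, went from 4795 ± 255 to 187 ± 77.0 FPKM (log2 -4.79, adjusted p = 5.12e-05), and Fasn, fatty acid synthase, from 1594 ± 290.0 to 76.8 ± 31.5 FPKM (log2 -4.46, adjusted p = 6.64e-05). These genes are abundant in adipocytes, and the adipocyte marker sums given above fell with them; the share of either in the other was not tested. Insig1, at -2.88, was the one cholesterol gene within the range of these 8, which ran from -4.79 to -2.16. The difference between the 2 gene groups was not tested.

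The comparison of C646 with DMSO asks whether injection of the p300 inhibitor altered the tumor transcriptome. None of the 8 cholesterol genes passed limma at an adjusted p of 0.05, and none passed at an unadjusted p of 0.05. Over all 12083 genes tested limma called 0 (0%), and 384 (3.18%) had an unadjusted p under 0.05. The groups overlapped for all 8 genes, whereas they did not for 8.56% of all genes. In this comparison 7 of the 8 differences were below 0, with a median log2 fold change of -0.25 beside -0.01 over all genes, and 5 of 8 were below 0 when samples were scaled to the same sum of FPKM.

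Before squalene, Hmgcs1 was 26.9, 17.8 and 40.2 FPKM in DMSO and 18.6, 25.4 and 17.1 FPKM in C646 tumors. DMSO 2 lay among the C646 tumors and the log2 difference was -0.42 (95% interval -1.14 to 0.31, adjusted p = 0.990). Idi1 was 9.66, 11.4 and 16.0 FPKM in DMSO and 11.6, 14.8 and 10.7 FPKM in C646, with a difference of 0.02 (95% interval -0.52 to 0.56). The group means were nearly equal, at 12.36 FPKM in both. Fdft1 was 11.1, 8.71 and 17.7 FPKM in DMSO and 8.80, 10.9 and 7.02 FPKM in C646 (log2 -0.45, 95% interval -1.14 to 0.25), and Ctsb, its neighbour, differed by -0.06. Sqle was 32.9, 23.5 and 46.4 FPKM in DMSO and 30.4, 29.2 and 22.6 FPKM in C646. The spread among the DMSO tumors was wider than the step between the groups (log2 -0.28, 95% interval -0.89 to 0.33).

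Lss was 14.1, 7.91 and 11.3 FPKM in DMSO and 7.82, 8.75 and 7.90 FPKM in C646 (log2 -0.41, 95% interval -0.94 to 0.13), and had the smallest unadjusted p of the 8 genes, 0.115. The C646 tumors were close together, and DMSO 2 fell within their range. Dhcr7 was 39.5, 49.7 and 49.3 FPKM in DMSO and 56.6, 46.5 and 35.3 FPKM in C646, with both the highest and the lowest value in C646 (log2 -0.02, 95% interval -0.49 to 0.45). Srebf2 was 57.2, 43.4 and 47.2 FPKM in DMSO and 50.2, 46.2 and 39.6 FPKM in C646 (log2 -0.12, 95% interval -0.48 to 0.25). Insig1 was 21.7, 12.9 and 17.7 FPKM in DMSO and 20.1, 14.7 and 10.8 FPKM in C646 (log2 -0.21, 95% interval -0.87 to 0.45). The intervals leave room for changes in either direction, the widest of them for Hmgcs1 and Fdft1, and a change of 2-fold lower lay within those 2.

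The other 12 enzymes also gave no call. Of the 18 enzymes 15 lay below 0, with a median log2 fold change of -0.30 beside -0.01 over all genes. Enzymes tended to deviate together in a sample, so these signs are not independent. Of the 12 others, 11 lay above the group mean in DMSO 3 and 1 in DMSO 2. Scap differed by 0.00 on the log2 scale, Insig2 by -0.25 and Srebf1, with a row of its own in these tables at 438 ± 158 and 551 ± 113 FPKM, by 0.37. White adipocyte marker sums were 11.7–71.5 FPKM in DMSO and 92.5–602 FPKM in C646 tumors. Of the 8 markers 6 were tested, all higher in C646 at an unadjusted p of 0.05 with limma, and none passed the adjusted threshold. Some passed the filter only through their C646 values, such as Plin1 (0–0.509 FPKM in DMSO and 1.42–6.71 FPKM in C646). The filter thus favoured markers high in C646, and this count is in part set by it. Skeletal muscle marker sums were 279, 292 and 270 FPKM in DMSO 3, C646 1 and C646 3 and under 1 FPKM in the other 3 tumors. The part of either in the differences above was not tested.

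Within groups the 8 genes tended to deviate in the same direction in a sample. Tumor 1 was the lowest of its group for 7 of 8 genes, with a mean deviation of -0.49 on the log2 scale. Tumor 2 was the highest for 5 genes (mean deviation 0.32), and Normal 3 for 6 genes (0.26). Among injected tumors DMSO 2 was the lowest for 6 genes (-0.32), C646 3 for 7 (-0.26) and C646 2 lay above its group mean for all 8 (0.15). Tumor 1 also had the highest sum of its group for every marker list, with white adipocyte and skeletal muscle sums of 2480 and 3857 FPKM. Over the 6 epithelial markers with a row in all tables, the sums were 3300, 2305 and 2518 FPKM in Tumor 1, Tumor 2 and Tumor 3. The part of these in its low values was not tested. Low FPKM values, which step with single reads, put Tumor 2 and Tumor 3 at 1.62 and 1.53 times the depth of Tumor 1, from peaks that held 4.23% and 11.6% of the ratios.

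**Figure D5:**
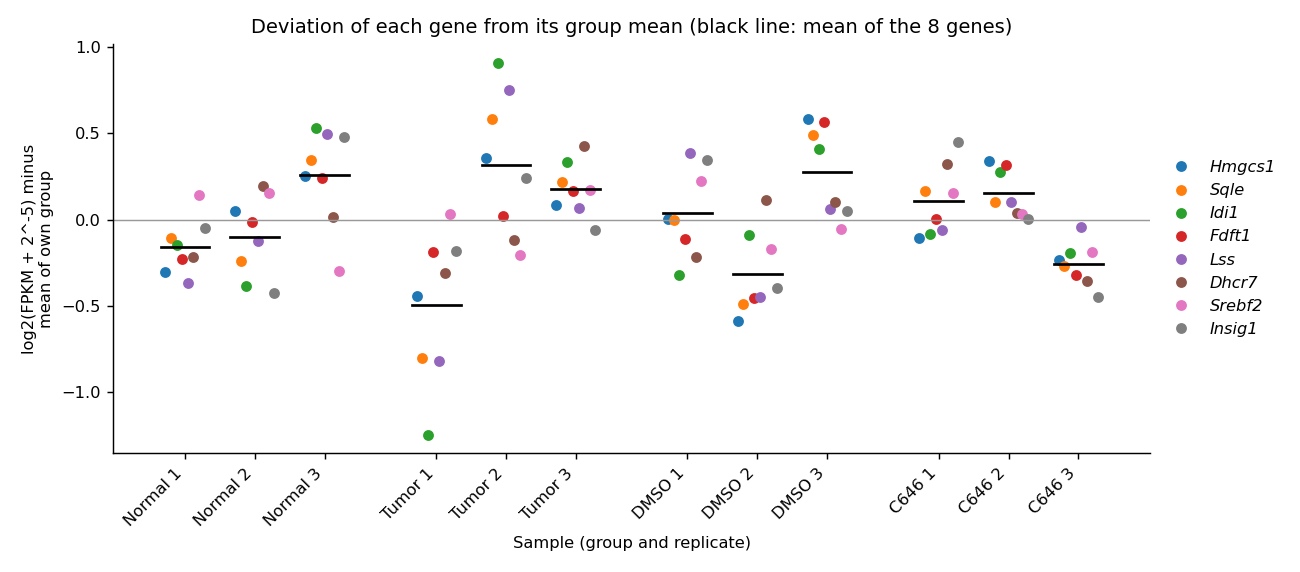
Deviation of each gene from the mean of its own group on the log2 scale (points, coloured by gene) in the 12 samples; black lines are means of the 8 genes. The points of Tumor 1, DMSO 2 and C646 3 lie mostly below 0, with means of -0.49, -0.32 and -0.26, and those of Normal 3, Tumor 2 and DMSO 3 mostly above.

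Genes were then ranked by how closely they followed the mean deviation of the 8 genes over the 12 samples, by Pearson's r among 10100 names with at least 1 FPKM in every sample. This is a description, because samples of a group share a mean by construction and the 12 samples come from 2 sets of tables. The closest 4 were Msmo1 (r = 0.958), Cyp51 (0.949), Rwdd1 (0.929) and Acot9 (0.918). Msmo1 and Cyp51 remove methyl groups from lanosterol, and Acot9 is an acyl-CoA thioesterase. Of the 12 other enzymes, 6 were among the highest 100 names, and the median r was 0.770, beside -0.07 over all names, with Ebp at -0.39. Of the 8 genes themselves Sqle (0.941) and Hmgcs1 (0.883) followed the shared mean most closely and Srebf2 least, at 0.06, each having contributed to that mean. Sqle and Hmgcs1 thus each followed this shared mean within groups. Between Normal and Tumor, Sqle, whose call rested on single libraries, rose and Hmgcs1 fell. Their correlation with each other was not computed.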

How the data were processed

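Poly(A) RNA-seq libraries, without strand, came from 3 samples in each of 4 groups, grouped by their labels. The authors trimmed adaptors, mapped reads to mm10 with TopHat2 (version 2.1.1) and computed FPKM per gene with Cufflinks (version 2.2.1), and they deposited 1 table of FPKM per sample. FPKM is normalized for length and library size, so read depth is unknown and limits precision by an unknown amount. Rows of the same name were summed here. Tests used limma 3.58.1 in R 4.3.3 (eBayes with a trend) on log2(FPKM + 0.03125), without covariates, on the 6 samples of each comparison, for genes with at least 1 FPKM in 3 or more samples (13031 and 12083 genes), with Benjamini-Hochberg adjustment over all of them and a threshold of 0.05. The method was tested on simulated data with independent noise and few or no changed genes. That setting differs from Tumor against Normal, where 60.5% of genes were called. Adding the pseudocount understates fold changes of low genes.

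The members, lists and tests were chosen with earlier results of these data known. Beside the 8 genes, those named are Srebf1, Insig2 and Scap, the 2 with the largest change in each direction among those called in each list, and the 4 most like the members; Ctsb and other overlapping genes and the joined rows of Tm7sf2 and Scd2 were named after the values were seen. Some genes of the lists are not reported here and were left out of the lists' counts. Positions came from GENCODE vM21, and promoters from RefSeq. Summaries and figures were made with Python 3.11.15, pandas 2.3.3 and matplotlib 3.10.9. Alternatives were other pseudocounts, filters, scalings and fits, a replicate block and leaving out each sample.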

Additional observations from a re-analysis of the deposited data

How the results depend on the processing

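Over 16 alternatives Hmgcs1, Fdft1, Dhcr7 and Insig1 kept their direction and their call in Tumor against Normal, with log2 differences of -1.85 to -1.38, -1.35 to -0.98, 1.22 to 1.62 and -3.13 to -2.64. The count of members higher fell from 3 to 1 with scaling to the same sum of FPKM, which cost Sqle and Srebf2 their calls, and was 1 to 2 with single samples left out; the count lower was 3 throughout. Idi1 was 0.18 with quantile normalization and -0.68 to 0.40 with single samples left out, and Lss -0.58 to 0.21. All genes called lower fell from 4128 to 2789, 2686 and 2570 without Normal 1, Normal 2 and Normal 3. The filter still asked for 1 FPKM in 3 samples, so genes at that level only in Normal could not pass. The genes tested fell from 13031 to 12056, 12077 and 12077.

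In C646 against DMSO no member was called under any alternative, and over all genes 12 were called, all lower, without DMSO 2 and none under the others. Scaling to the same sum of FPKM shifted the median of all genes by 0.13 and gave 0.11 for Dhcr7 and 0.0098 for Srebf2, and quantile normalization gave 0.047 for Dhcr7. With single samples left out Idi1 ranged from -0.14 to 0.22, Dhcr7 from -0.18 to 0.16, Insig1 from -0.44 to 0.014 and Scap from -0.067 to 0.11. The cause of these moves was not tested.

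Same-numbered samples deviated together with r of -0.10 to 0.01 in Tumor and Normal and 0.07 to 0.17 in C646 and DMSO, so the numbers were not taken as pairs. With the replicate block 5 members were called in Tumor against Normal, Srebf2 losing its call (log2 0.54, adjusted p = 0.0719), and 0 members in C646 against DMSO.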
